A study of Mus musculus
Rattus norvegicus and Mus musculus and Rattus norvegicus with 95 samples.

Results

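The nuclear genes that encode the respiratory chain and ATP synthase were followed through a series on mouse-rat allodiploid embryonic stem cells (AdESCs). The genes were chosen by symbol. Nduf followed by a, b, c, s or v named complex I, and Sdha to Sdhd named complex II. The start Uqcr named complex III, the starts Cox4 to Cox8 complex IV and the start Atp5 complex V. This gave 75 of the 13926 mouse-rat homologues measured. By these symbols 34 genes belonged to complex I, 4 to complex II, 6 to complex III, 15 to complex IV and 16 to complex V. Of the 75, 67 were counted by symbol as structural subunits and 6 are Ndufaf genes, whose products help to build complex I and are not part of it. The remaining 2, Atp5s and Atp5sl, carry an Atp5 symbol without being core subunits of the enzyme. Ndufa4 and its paralogue Ndufa4l2 are counted with complex I by symbol, although Ndufa4 is known as a subunit of complex IV.

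The bulk set held 8 libraries of ESCs in G0/G1, 1 for each line. There were 4 AdESC lines, RM1-1, RM2-1, MR1-1 and MR2-1, which carry both mouse and rat genomes. The parents' species were represented by the rat ESC lines DA25 and DA53 and the mouse ESC lines F145 and F146. The labels give no strain, genotype, treatment or passage, and do not mention separate cultures. The p-values therefore cover the spread among these samples alone, which may be technical. Single cells of these AdESC lines and of their progeny, 87 in all, made 11 samples, each of 1 cell type and 1 line. The 7 differentiated samples were embryoid bodies (EBs, aggregates in which stem cells differentiate) of RM1-1 and MR2-1, neurons and testis somatic cells that RM1-1 gave in a mouse chimaera, fibroblasts that MR1-1 gave in a mouse chimaera, and lung cells and testis somatic cells that RM2-1 gave in a rat chimaera. They were set against 4 samples of undifferentiated AdESCs. The tests used the mean FPKM over a sample's cells, with 63 differentiated and 24 AdESC cells behind the means.

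Complex I takes electrons from NADH and complex II takes them from succinate. Both pass them through ubiquinone to complex III, then by cytochrome c to complex IV, which reduces oxygen. Complexes I, III and IV pump protons across the inner mitochondrial membrane, and complex V, the ATP synthase, uses the gradient to make ATP. Most subunits are encoded in the nucleus and must be assembled with a small core made inside the mitochondrion, so in an AdESC nuclear subunits of both species may meet in 1 enzyme. Naive ESCs are known to draw on both glycolysis and respiration.

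Values were FPKM, fragments scaled to transcript length and to the size of the library. Per library the sum over all genes lay between 312695 and 377664 FPKM in bulk and between 213045 and 411555 FPKM in cells, and the read depth was unknown. The sources used here do not give how the 2 species' values were combined in AdESCs, so an AdESC value cannot be split by parent, and every difference from a parent rests on that step. The fibroblast and feeder markers (6 of 6 measured, Col1a1 and Col1a2 among them) summed to 26.3 to 180 FPKM in the AdESC lines, at most 0.920 FPKM in the rat lines, and 1869 and 230 FPKM in the mouse lines F145 and F146. Stem cell markers (4 of 5 measured) summed to 968 to 1296 FPKM in every bulk line, and to 546 to 787 FPKM in the AdESC single-cell samples against at most 16.4 FPKM in the differentiated ones. Some labels went against the markers. The RM2-1 sample labelled lung had 0 FPKM of the surfactant genes Sftpc and Sftpd and of the club cell gene Scgb1a1. Its Leydig markers summed to 1135 FPKM, nearly all from the steroid enzyme Cyp11a1 (1028 FPKM) and Star (102 FPKM). The Leydig markers Insl3 and Cyp17a1 were at 4.71 and 0 FPKM. Of the Sertoli markers Inha was at 97.9 FPKM, and Amh and Cldn11 were at 0 FPKM. The RM1-1 sample labelled testis had 0 FPKM of the 3 Sertoli markers measured and 6.71 FPKM of the Leydig markers. Its neuron markers summed to 375 FPKM, against 534 FPKM in the RM1-1 neurons and 65.4 to 105 FPKM in the AdESC samples. Gap43 (235 FPKM), Tubb3 (69.7 FPKM) and Stmn2 (63.5 FPKM) made up most of that sum. Syt1 and Dcx were at 0.00999 and 0.00462 FPKM in it, against 4.77 and 6.31 FPKM in the neurons. The fibroblast and feeder markers summed to 82.2 FPKM in the MR1-1 fibroblasts, below MR2-1 EBs (131 FPKM) and the RM2-1 lung (278 FPKM) and testis (321 FPKM) samples. The fibroblasts also had 82.7 FPKM of the epithelial gene Epcam, against 70.1 FPKM in MR1-1 AdESCs, and 7.12 FPKM of the stem cell gene Pou5f1, against 62.9 FPKM. The RM2-1 testis sample also had 0 FPKM of the Sertoli markers, and 18.1 FPKM of the Leydig markers, nearly all Star. Its neuron markers summed to 93.9 FPKM, of which Tubb3 made up 92.4 FPKM. It had 4116 FPKM of the smooth muscle markers Tagln and Cnn1. The part of these cells in the results was not tested. Values without the samples labelled RM1-1 testis and RM2-1 lung stand beside the differences between differentiated cells and AdESCs. This alternative was chosen after seeing the data, and the RM2-1 testis and MR1-1 fibroblast samples were kept in it.

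Coding sequences are given for the gene that differed most steadily, Cox7b, and for the 3 genes of subunit c, whose values depend on telling near copies apart. They come from the GENCODE M21 transcripts on GRCm38, the mouse build mm10 that the submitters name. Cox7b encodes a small subunit of complex IV, in 80 codons on chrX:106015831-106021820 on the plus strand (introns left out, stop codon not shown). Capitals mark its start codon.
Cox7b: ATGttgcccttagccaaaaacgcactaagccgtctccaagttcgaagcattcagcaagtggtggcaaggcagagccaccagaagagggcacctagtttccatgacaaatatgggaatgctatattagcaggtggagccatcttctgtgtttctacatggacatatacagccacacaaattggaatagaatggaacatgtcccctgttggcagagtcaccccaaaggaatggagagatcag
Atp5g1, Atp5g2 and Atp5g3 encode the same mature subunit c, the ring of the ATP synthase that turns with the proton flow. The last 75 codons of each are shown, with capitals at the 57 of 225 positions where the 3 genes do not share a base.
Atp5g1, chr11:96073107-96073635, minus strand: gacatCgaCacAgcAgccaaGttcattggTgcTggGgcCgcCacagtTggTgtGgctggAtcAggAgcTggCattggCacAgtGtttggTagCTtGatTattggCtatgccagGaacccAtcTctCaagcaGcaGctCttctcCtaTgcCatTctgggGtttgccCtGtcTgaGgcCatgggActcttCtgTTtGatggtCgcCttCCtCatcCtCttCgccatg
Atp5g2, chr15:102663017-102665166, minus strand: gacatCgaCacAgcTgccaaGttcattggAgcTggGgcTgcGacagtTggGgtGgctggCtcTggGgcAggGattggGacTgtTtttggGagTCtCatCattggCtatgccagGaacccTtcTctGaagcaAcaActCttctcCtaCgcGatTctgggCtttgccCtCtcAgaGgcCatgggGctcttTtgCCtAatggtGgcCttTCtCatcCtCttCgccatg
Atp5g3, chr2:73908596-73909296, minus strand: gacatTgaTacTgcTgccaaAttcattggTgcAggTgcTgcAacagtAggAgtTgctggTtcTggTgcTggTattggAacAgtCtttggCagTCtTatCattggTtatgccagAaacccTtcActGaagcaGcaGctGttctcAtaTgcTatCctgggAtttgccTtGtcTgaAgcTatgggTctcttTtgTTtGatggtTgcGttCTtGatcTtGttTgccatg
All 75 codons encode the same residue in the 3 genes, while 34 bases differ between Atp5g1 and Atp5g2, 45 between Atp5g1 and Atp5g3 and 48 between Atp5g2 and Atp5g3. The longest stretch shared without a difference was 20 bases.

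Respiratory chain transcripts were abundant in every bulk line, and ATP synthase and complex IV held most of them. The 75 genes together made up 3.58% to 4.08% of all FPKM in the 4 AdESC lines, 3.36% and 3.45% in the rat lines and 3.88% and 4.66% in the mouse lines. Their summed FPKM was 13088 ± 549 in AdESCs (SD, n = 4), 12448 ± 819 in rat ESCs and 14140.4 ± 2856 in mouse ESCs (n = 2 each). The AdESC sum was 0.926 of the mouse sum and 1.05 of the rat sum, and the rat sum was 0.880 of the mouse sum. The AdESC and rat means lay between the sums of the 2 mouse lines, 12121 FPKM in F145 and 16160 FPKM in F146. Between these, F146 was higher than F145 for 57 of the 72 genes tested, with a median log2 difference of 0.41 against 0.15 over all 8794 genes. The part of the feeder signal of F145 in that gap was not tested. In bulk libraries, fewer cells of a type and less RNA per cell cannot be told apart.

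**Figure D1:**
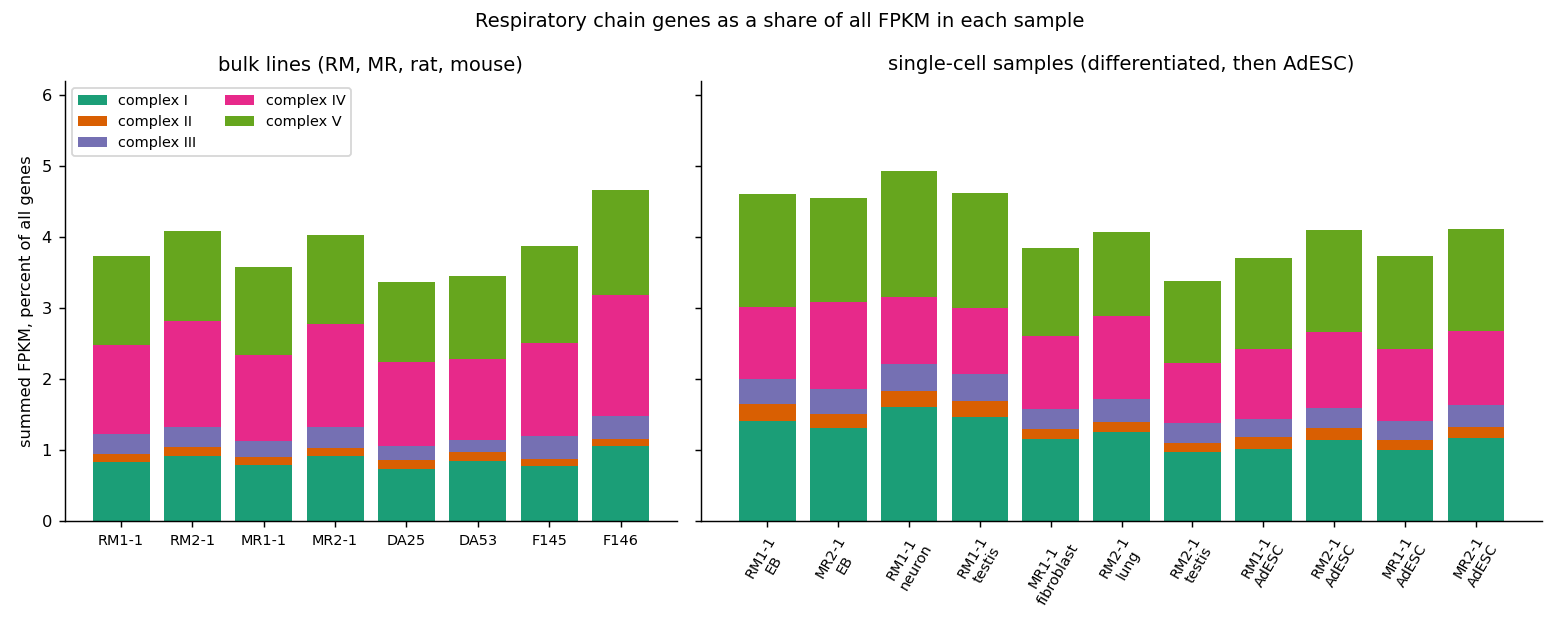
Summed FPKM of the respiratory chain genes by complex as a percent of the FPKM of all genes (vertical axis), in each bulk line (left) and each single-cell sample (right). Complexes IV and V hold most of each bar, F146 reaches 4.66% among the bulk lines, and the RM1-1 neurons reach 4.93% among the single-cell samples.

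The highest subunit in AdESCs was Atp5b, the catalytic beta subunit of the ATP synthase, at 913 FPKM, which also led in rat ESCs at 909 FPKM and in mouse ESCs at 1079 FPKM among the complex V subunits. In complex IV Cox8a, the ubiquitous form of the smallest subunit, led in AdESCs at 682 FPKM. Complex II subunits stood close together in AdESCs, from Sdhc at 95.8 FPKM to the flavoprotein Sdha at 102 FPKM. The median subunit had 92.04 FPKM in complex I, 101 FPKM in complex II, 140 FPKM in complex III, 337 FPKM in complex IV and 256 FPKM in complex V. The complexes hold 1 or a few copies of most subunits, so these FPKM are levels of RNA and not of enzyme.

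Core subunits of complex I show the level and spread of the values. Ndufs1, which carries iron-sulfur clusters of the NADH-oxidising arm, had 53.1 and 35.6 FPKM in RM1-1 and RM2-1 and 41.2 and 41.1 FPKM in MR1-1 and MR2-1, against 43.4 and 59.3 FPKM in DA25 and DA53 and 31.4 and 42.4 FPKM in F145 and F146. Ndufv1, which binds NADH, ran from 64.3 to 95.2 FPKM in AdESCs, 84.01 to 88.8 FPKM in rat ESCs and 62.2 to 74.1 FPKM in mouse ESCs. AdESCs overlapped both parents for both genes, and neither of them passed the test in any bulk comparison. Of the 75 genes 72 passed the filter of a mean of at least 1 FPKM and were tested, all but Cox6a2, Cox8b and Cox8c, tissue forms of complex IV subunits.

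The first comparison set AdESCs against the ESCs of the mouse parent species. Only Cox7b and Ndufaf5 passed the test (limma, adjusted p under 0.05 over all genes tested), both higher in AdESCs. They were 2 of 72 genes tested, beside 3.89% of all genes. The median log2 difference of the 72 genes was 0.01, against -0.01 over all genes.

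Cox7b (chrX:106015700-106022450) had 645 and 591 FPKM in RM1-1 and RM2-1 and 529 and 577 FPKM in MR1-1 and MR2-1, against 203 and 200.1 FPKM in F145 and F146. Every AdESC line was above both mouse lines, by a log2 difference of 1.53 ± 0.20 (SE, adjusted p = 0.00361). In the rat lines it had 697 and 711 FPKM, also far above mouse, with a log2 difference of 1.80 ± 0.23 (adjusted p = 0.000451). No AdESC line reached the rat lines, but the difference between AdESCs and rat ESCs did not pass the test.

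Ndufaf5 (chr2:140170649-140203689), which modifies the complex I subunit Ndufs7 during assembly, was the other gene higher in AdESCs. It had 10.1 and 7.72 FPKM in RM1-1 and RM2-1 and 9.98 and 10.1 FPKM in MR1-1 and MR2-1, against 2.58 and 3.64 FPKM in F145 and F146. The log2 difference was 1.35 ± 0.26 (adjusted p = 0.026). The rat lines had 22.2 and 20.8 FPKM, so AdESCs also fell short of rat, by a log2 difference of -1.11 ± 0.26 (adjusted p = 0.0272). The 3 groups did not overlap, with AdESCs in the middle. For AdESCs, Ndufaf5 lost its call in 6 of 13 alternatives against mouse and in 5 of 13 against rat.

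The count was 1 when DA25, DA53, MR2-1 or RM1-1 was left out, or when RM and MR lines were fitted as separate groups. Without F145 it was 2, Cox7b higher and Ndufab1 lower.

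**Figure D2:**
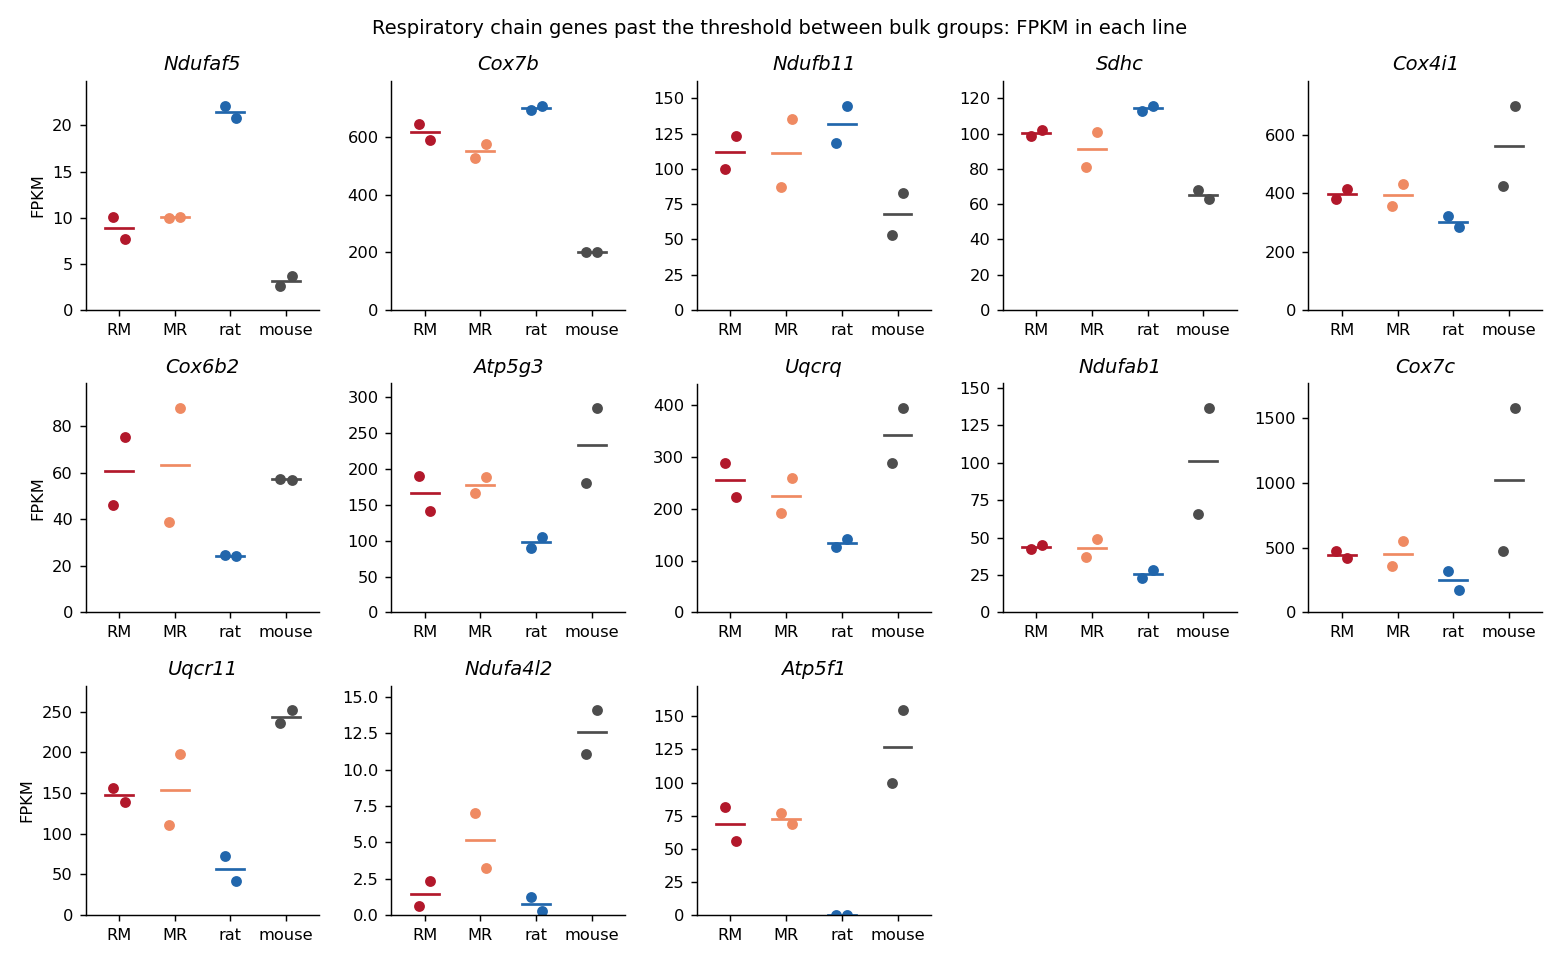
FPKM (vertical axis, from 0) of the 13 respiratory chain genes that passed the test between AdESC, rat and mouse ESCs, ordered by the rat minus mouse difference; each point is a line and each bar the mean of 2 lines. Cox7b lies between 529 and 711 FPKM in the AdESC and rat lines and near 200 FPKM in the mouse lines, and Atp5f1 is listed at 0 in both rat lines.

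Against rat ESCs 4 of 72 genes passed the test, 3 higher and 1 lower in AdESCs, beside 9.7% of all genes. The median log2 difference was 0.00, against -0.11 over all genes. Uqcr11 and Cox6b2 were higher and Ndufaf5 lower. The other call, Atp5f1, rests on a gene listed at 0 in both rat lines, and without it 3 of 71 genes passed, 2 higher and 1 lower.

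Uqcr11 (chr10:80402997-80406830), a small subunit of complex III, had 156 and 139 FPKM in RM1-1 and RM2-1 and 110.0 and 198 FPKM in MR1-1 and MR2-1, against 71.9 and 41.96 FPKM in DA25 and DA53. No AdESC line overlapped the rat lines, and the log2 difference was 1.41 ± 0.29 (adjusted p = 0.0152). Cox6b2 (chr7:4751792-4753094), the form of subunit 6B known from testis, had 46.05 and 75.1 FPKM in the RM lines and 38.7 and 87.7 FPKM in the MR lines, against 24.6 and 24.2 FPKM in rat. The log2 difference was 1.23 ± 0.33 (adjusted p = 0.0428), and the gene lost its call in 9 of 13 alternatives. Its ubiquitous partner Cox6b1 had 347 ± 42.2 FPKM in AdESCs and 229 ± 60.6 FPKM in rat ESCs, and did not pass (adjusted p = 0.132). Cox6b2 made up 11.8% to 19.0% of the summed Cox6b FPKM in AdESCs, 8.28% and 11.48% in rat and 13.8% and 14.3% in mouse.

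Atp5f1 (chr3:105942698-105960099), subunit b in the stalk that holds the ATP synthase still, had 81.8 and 55.7 FPKM in the RM lines and 76.9 and 68.5 FPKM in the MR lines. It was listed at 0 in both rat lines and had 99.8 and 154 FPKM in the mouse lines. The enzyme is known not to work without this subunit. Whether the listed 0 is a level of transcript was not tested, and no fold is given. AdESCs had 0.556 of the mouse mean.

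The count against rat was 2 when DA25, MR2-1 or RM1-1 was left out, 2 with RM and MR as separate groups, and 1 without DA53. Scaling by the upper quartile shifted the median log2 difference of all genes by 0.13 for AdESC minus rat and by -0.15 for rat minus mouse, and gave 5 higher and 1 lower against rat.

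Rat and mouse ESCs differed at 13 of 72 genes, 4 higher and 9 lower in rat, beside 26.6% of all genes. Higher in rat were Ndufaf5, Sdhc and the X-linked subunits Cox7b and Ndufb11. Lower in rat were Ndufab1 and Ndufa4l2 by symbol in complex I, Uqcr11 and Uqcrq in complex III, Cox4i1, Cox6b2 and Cox7c in complex IV, and Atp5g3 in complex V. The count also holds Atp5f1, which was listed at 0 in rat. Without it 12 of 71 genes passed, 4 higher and 8 lower. The median over the 72 genes was 0.06, against 0.08 over all genes.

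All 4 complex II subunits had a higher mean in rat, and of these Sdhc passed the test. Sdhc, a membrane anchor that holds the haem, had 113 and 116 FPKM in DA25 and DA53, against 67.9 and 62.8 FPKM in F145 and F146, a log2 difference of 0.80 ± 0.24 (adjusted p = 0.0344). The other anchor Sdhd averaged 120 ± 14.6 FPKM in rat and 75.4 ± 3.08 FPKM in mouse (adjusted p = 0.0687). AdESCs had 81.4 to 102 FPKM of Sdhc, between the parental lines, and 92.9 to 111 FPKM of Sdhd, above the mouse lines and overlapping the rat lines. Ndufb11 (chrX:20615326-20617619), in the membrane arm of complex I, had 119 and 144.9 FPKM in rat, against 52.9 and 82.99 FPKM in mouse, 0.97 ± 0.31 on the log2 scale (adjusted p = 0.0444). The third X-linked gene, Ndufa1, had 153 and 91.5 FPKM in rat and 67.02 and 127 FPKM in mouse, and the groups overlapped.

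Among genes lower in rat, Uqcr11 had 71.9 and 41.96 FPKM in rat and 237 and 251 FPKM in mouse (log2 difference -2.13 ± 0.34, adjusted p = 0.00159). Uqcrq, which sits beside cytochrome b in complex III, had 125 and 142 FPKM in rat and 288 and 394 FPKM in mouse (-1.33 ± 0.28, adjusted p = 0.00706). Ndufab1, the mitochondrial acyl carrier protein that is also a complex I subunit, had 23.2 and 28.5 FPKM in rat and 65.9 and 137 FPKM in mouse (-1.84 ± 0.35, adjusted p = 0.00391). For all 3 the AdESC lines lay between, at 110.0 to 198 FPKM for Uqcr11, 191 to 288 FPKM for Uqcrq and 37.2 to 49.3 FPKM for Ndufab1.

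Ndufa4l2, a paralogue of Ndufa4 known as a target of the hypoxia factor HIF-1, had 1.21 and 0.258 FPKM in rat and 11.1 and 14.1 FPKM in mouse (-3.02 ± 0.64, adjusted p = 0.00702). AdESC lines had 0.581 to 7.01 FPKM of it. Cox7c, a small subunit of complex IV, fell to 323 and 171 FPKM in rat, against 472 and 1580.4 FPKM in mouse (-1.87 ± 0.51, adjusted p = 0.0228), with most of the mouse mean in F146. It did not pass without F146 (adjusted p = 0.119) or without DA53 (adjusted p = 0.165).

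Atp5g3 had 89.8 and 105 FPKM in rat and 181 and 284 FPKM in mouse (-1.21 ± 0.29, adjusted p = 0.0126). Cox4i1, the general form of subunit 4, averaged 303 ± 26.3 FPKM in rat and 564 ± 195 FPKM in mouse (-0.85 ± 0.28, adjusted p = 0.049) and lost its call in 10 of 13 alternatives, as Ndufb11 and Sdhc did in 8. Cox6b2 had 24.6 and 24.2 FPKM in rat and 57.1 and 56.97 FPKM in mouse (-1.19 ± 0.38, adjusted p = 0.0422), and lost its call in 6 of 13 alternatives. The other forms of subunit c did not pass. Atp5g1 had 172 and 123 FPKM in rat and 199 and 349 FPKM in mouse, and Atp5g2 had 267 and 232 FPKM in rat and 327 and 419 FPKM in mouse, with adjusted p of 0.0906 and 0.111. Leaving out DA25 or DA53 gave 7 calls each, and upper-quartile scaling gave 2 higher and 11 lower.

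**Figure D3:**
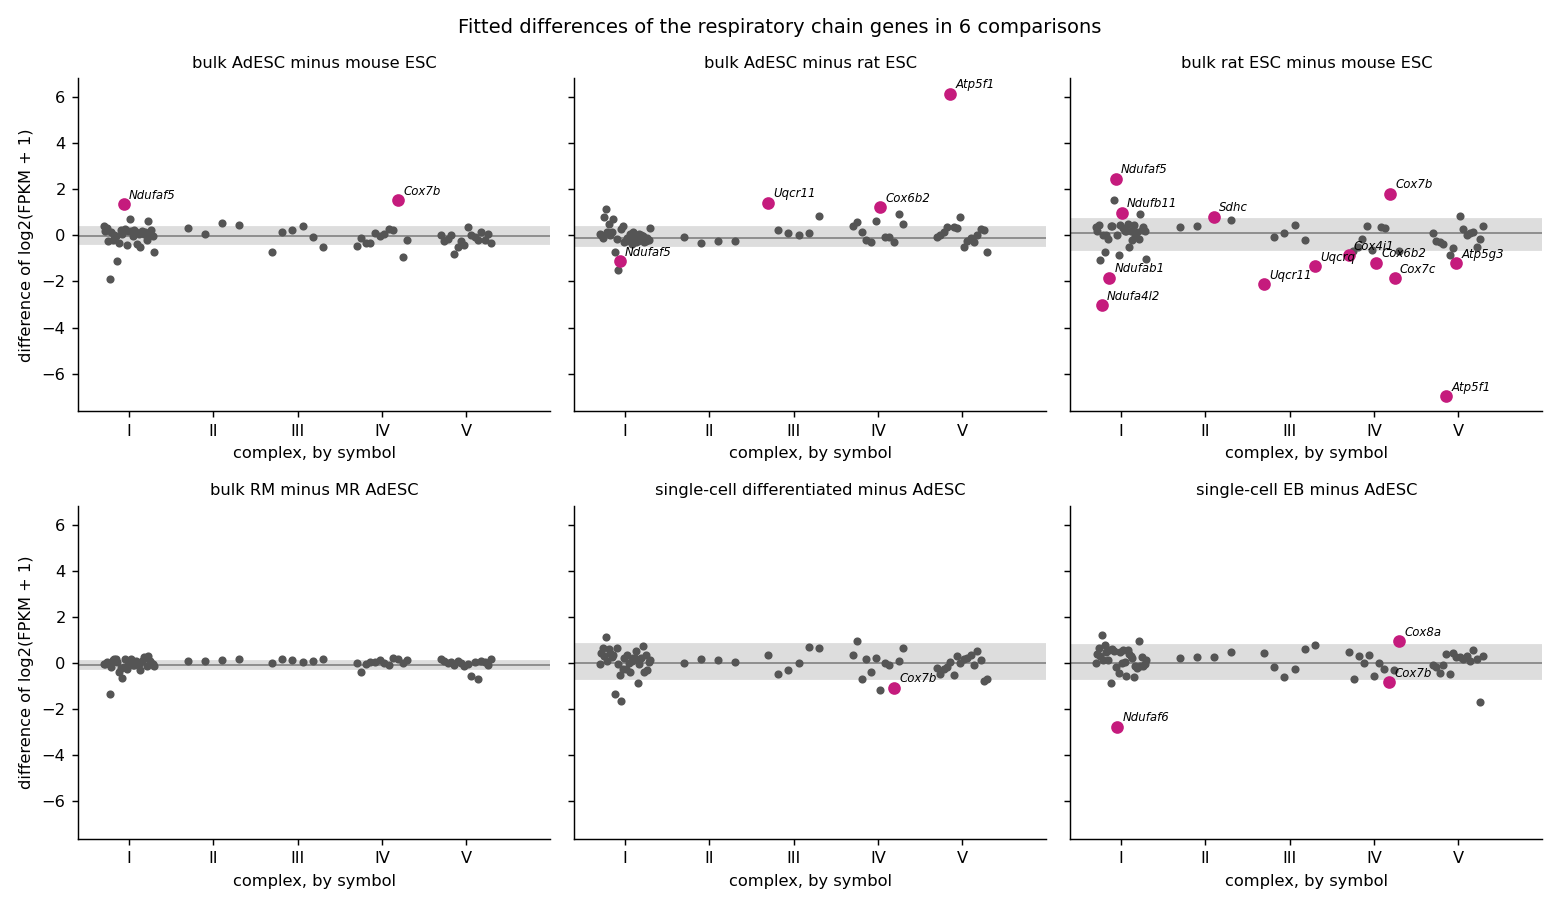
Fitted difference of log2(FPKM + 1) (vertical axis) of each respiratory chain gene that passed the filter, by complex (horizontal axis), in the 6 comparisons; large named points passed the test, and the grey band and line are the quartiles and median over all genes. The bulk rat minus mouse panel holds 13 named points, the RM minus MR panel none.

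The AdESC mean lay between the rat and mouse means for 51 of the 72 genes (70.8%), above both for 12 and below both for 9. Over all 8794 genes the share between the parents was 63.9%. The AdESC mean differed from the mean of the 2 parental means by a median of 0.02 on the log2 scale over the 72 genes, with quartiles of -0.13 and 0.09, against -0.10 over all genes, with quartiles of -0.32 and 0.12. For Cox7b the AdESC mean of 586 FPKM stood above the parental mean of 453 FPKM, while for Ndufaf5 it stood below, at 9.47 FPKM against 12.3 FPKM. These positions rest on the unstated joining of the species' values and are given with no test.

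The AdESC lines carry the names RM or MR, 2 lines each, whose meaning the labels do not give. None of 72 genes passed the test (limma), beside 0% of all genes, and 1 of the 72 had an unadjusted p under 0.05. That gene was Ndufa4l2, at 0.581 and 2.31 FPKM in RM1-1 and RM2-1 and 7.01 and 3.24 FPKM in MR1-1 and MR2-1. The median log2 difference was 0.03, against -0.06 over all genes. The summed FPKM of the 75 genes was 13231 ± 263 in RM lines and 12944 ± 868 in MR lines (SD, n = 2 each), a ratio of 1.02.

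In the single cells 59 of the 75 genes were above 0 in all 87 cells, and a cell had 60 to 71 of them at 1 FPKM or more. Over the genes tested the median gene was above 0 in 100% of cells, against 78.2% for the median of all genes. Cox8b, a muscle form of subunit 8, was at 0 in every cell. Cox6a2, the muscle form of subunit 6A, was above 0 in 2 cells, Cox8c in 1, Ndufa4l2 in 10 and Cox4i2 in 15.

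Differentiated cells were then set against AdESCs. Only Cox7b passed the test, and it fell, 1 of 72 genes tested beside 15.9% of all genes. The median log2 difference was 0.07, against 0.02 over all genes, and the 75 genes made up 4.29% ± 0.541 of all FPKM in differentiated samples (SD, n = 7) and 3.91% ± 0.22 in AdESC samples (n = 4). Without the RM1-1 testis and RM2-1 lung samples the differentiated share was 4.26% ± 0.63 (n = 5), and the median difference was 0.06, against 0.03 over all genes.

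Cox7b averaged 249 FPKM in RM1-1 EBs, 202 FPKM in MR2-1 EBs, 201 FPKM in RM1-1 neurons, 251 FPKM in the RM1-1 testis sample and 200.2 FPKM in MR1-1 fibroblasts. It was lowest in the RM2-1 samples, at 104 FPKM in the lung sample and 167 FPKM in the testis sample. The AdESC samples had 399 FPKM in RM1-1, 464 FPKM in RM2-1, 365 FPKM in MR1-1 and 383 FPKM in MR2-1. All 7 differentiated samples were below all 4 AdESC samples, by a log2 difference of -1.08 ± 0.24 (adjusted p = 0.00693). Single cells overlapped: the highest EB cell of MR2-1 had 431 FPKM, and the lowest AdESC cell of that line had 161 FPKM. The gene passed under all 17 alternatives, with differences from -1.14 to -0.93.

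Other subunits named here did not pass. Cox5a, a subunit on the matrix side of complex IV, ran from 196 to 457 FPKM in differentiated samples and from 415 to 541 FPKM in AdESC samples (adjusted p = 0.0532). Ndufs1 ran from 22.8 to 87.6 FPKM in differentiated samples and from 65.1 to 82.3 FPKM in AdESC samples (adjusted p = 0.105). Atp5b ran from 489 to 843 FPKM in differentiated samples and from 874 to 988 FPKM in AdESC samples (adjusted p = 0.0833). The groups did not overlap for Atp5b and did for the other two. Cox8a ran the other way, from 177 to 412 FPKM in differentiated samples and from 151 to 221 FPKM in AdESCs, and the groups overlapped (adjusted p = 0.083).

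The samples were also paired, since 4 lines gave both states. With cell line as a block 2 genes passed, both lower, beside 17.3% of all genes: Cox7b (-1.11 ± 0.23, adjusted p = 0.00545) and Cox5a (-0.75 ± 0.21, adjusted p = 0.0293). Without the samples labelled RM1-1 testis and RM2-1 lung, Cox7b, Cox5a and the assembly factor Ndufaf6 passed, all lower in differentiated cells. They were 3 of 72 genes tested, beside 14.7% of all genes. Upper-quartile scaling gave 5 higher and 2 lower, and leaving out MR1-1 fibroblasts or RM2-1 lung gave 3 calls, RM1-1 neurons, RM1-1 testis or RM2-1 testis 2.

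**Figure D4:**
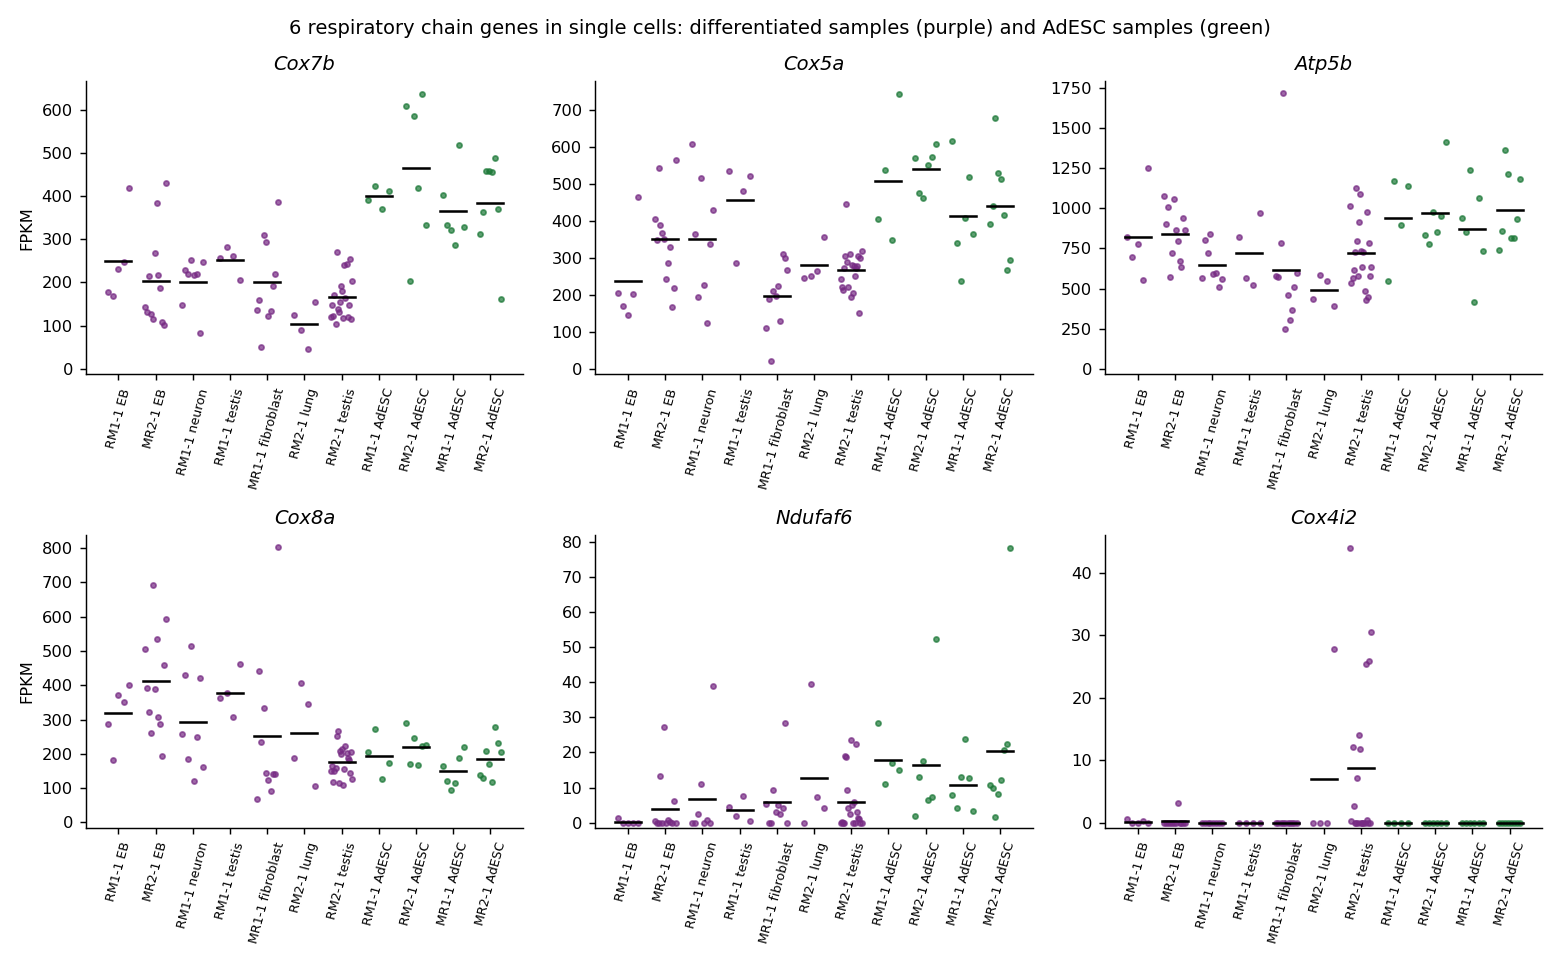
FPKM (vertical axis) of 6 respiratory chain genes in single cells, by sample (horizontal axis), differentiated samples left in purple and AdESC samples right in green; bars are the sample means that entered the tests. The Cox7b means lie between 104 and 251 FPKM in differentiated samples and between 365 and 464 FPKM in AdESC samples, while single cells overlap.

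EBs alone differed from AdESCs at 3 of 71 genes, 1 higher and 2 lower, beside 9.87% of all genes. The median log2 difference of the 71 genes was 0.17, against 0.01 over all genes, and the 75 genes summed to 14719 ± 240 FPKM in EBs (SD, n = 2) and 13618 ± 1031 FPKM in AdESCs (n = 4). Cox8a had 319 and 412 FPKM in RM1-1 and MR2-1 EBs, above every AdESC sample (151 to 221 FPKM), by 0.96 ± 0.22 on the log2 scale (adjusted p = 0.0263). Cox7b fell by 0.84 ± 0.19 on that scale (adjusted p = 0.0243).

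Ndufaf6 (chr4:11051045-11076205), an assembly factor of complex I, had 0.265 and 3.98 FPKM in RM1-1 and MR2-1 EBs, against 17.8, 16.4, 10.8 and 20.5 FPKM in the RM1-1, RM2-1, MR1-1 and MR2-1 AdESC samples (-2.76 ± 0.64, adjusted p = 0.0251). It was at 0 in 4 of 5 EB cells of RM1-1 and 6 of 12 of MR2-1, and in no AdESC cell. With cell line as a block only Ndufaf6 passed (adjusted p = 0.0473), beside 4.31% of all genes, and the adjusted p was 0.218 for Cox7b and 0.187 for Cox8a. Leaving out the MR2-1 or the RM1-1 AdESC sample left 0 calls in limma, with 12 and 11 genes at an unadjusted p under 0.05, the MR1-1 or RM2-1 AdESC sample 1, and upper-quartile scaling gave 3 higher and 2 lower.

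Each differentiated sample was also read against the AdESC sample of its own line, with no test, since a line had 1 sample of each type. A gene was counted where it differed at least 2-fold on the log2(FPKM + 1) scale. The RM1-1 neurons had the highest share of respiratory transcripts of any sample, 4.93% of all FPKM, against 3.71% in RM1-1 AdESCs. In them 13 of 70 genes were at least 2-fold higher and 1 lower, beside 30.7% and 21.9% of all genes, and the median difference was 0.47, against 0.16 over all genes. In the RM1-1 sample labelled testis, whose neuron markers are given above, 8 of 70 were higher and 4 lower, beside 30.4% and 24.3%, with a median of 0.48 against 0.16.

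Ndufc2, a membrane arm subunit of complex I, stood out in both, at 359 FPKM in neurons and 395 FPKM in the testis sample, against 92.5 FPKM in RM1-1 AdESCs. In neurons 9 of 33 complex I genes were at least 2-fold higher and 1 lower, beside the same 30.7% and 21.9% of all genes. Ndufa12 had 352 FPKM there and 121 FPKM in RM1-1 AdESCs, and Ndufs4, an accessory subunit at the NADH arm, had 114 FPKM and 31.9 FPKM. Ndufaf1, an early assembly factor of complex I, was at 0.338 FPKM in the RM1-1 testis sample, against 17.4 FPKM in RM1-1 AdESCs. Ndufaf6 was at 3.56 FPKM there, against 17.8 FPKM.

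EBs differed by line. In RM1-1 EBs 4 of 71 genes were higher and 4 lower, beside 26.2% and 24.6% of all genes, with a median of 0.27 against 0.00 over all genes. In MR2-1 EBs 2 of 69 were higher and 2 lower, beside 25.4% and 23.6%, with a median of 0.00 against -0.03. The MR1-1 sample labelled fibroblasts, whose markers are given above, had 0 of 70 higher and 6 lower, beside 29% and 26.4%. Its median was -0.15 against -0.01. Among the lower ones was Atp5g1, at 154 FPKM in fibroblasts and 416 FPKM in MR1-1 AdESCs.

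In the RM2-1 rat chimaera the lung and testis samples had medians below 0, as did all genes. In the lung sample 2 of 72 genes were higher and 13 lower, beside 27.5% and 35.3% of all genes, with a median of -0.27 both for the 72 genes and for all genes. Its Cox7b was at 104 FPKM and its Ndufaf5 at 2.97 FPKM, against 464 and 22.02 FPKM in RM2-1 AdESCs. Ndufaf1 was listed at 0 in all 4 lung cells. In the RM2-1 testis sample 2 were higher and 6 lower, beside 25.7% and 27.3%, with a median of -0.32 against -0.18. Atp5s was at 0.904 FPKM in the lung sample and 2.47 FPKM in the testis sample, against 10.4 FPKM in RM2-1 AdESCs.

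**Figure D5:**
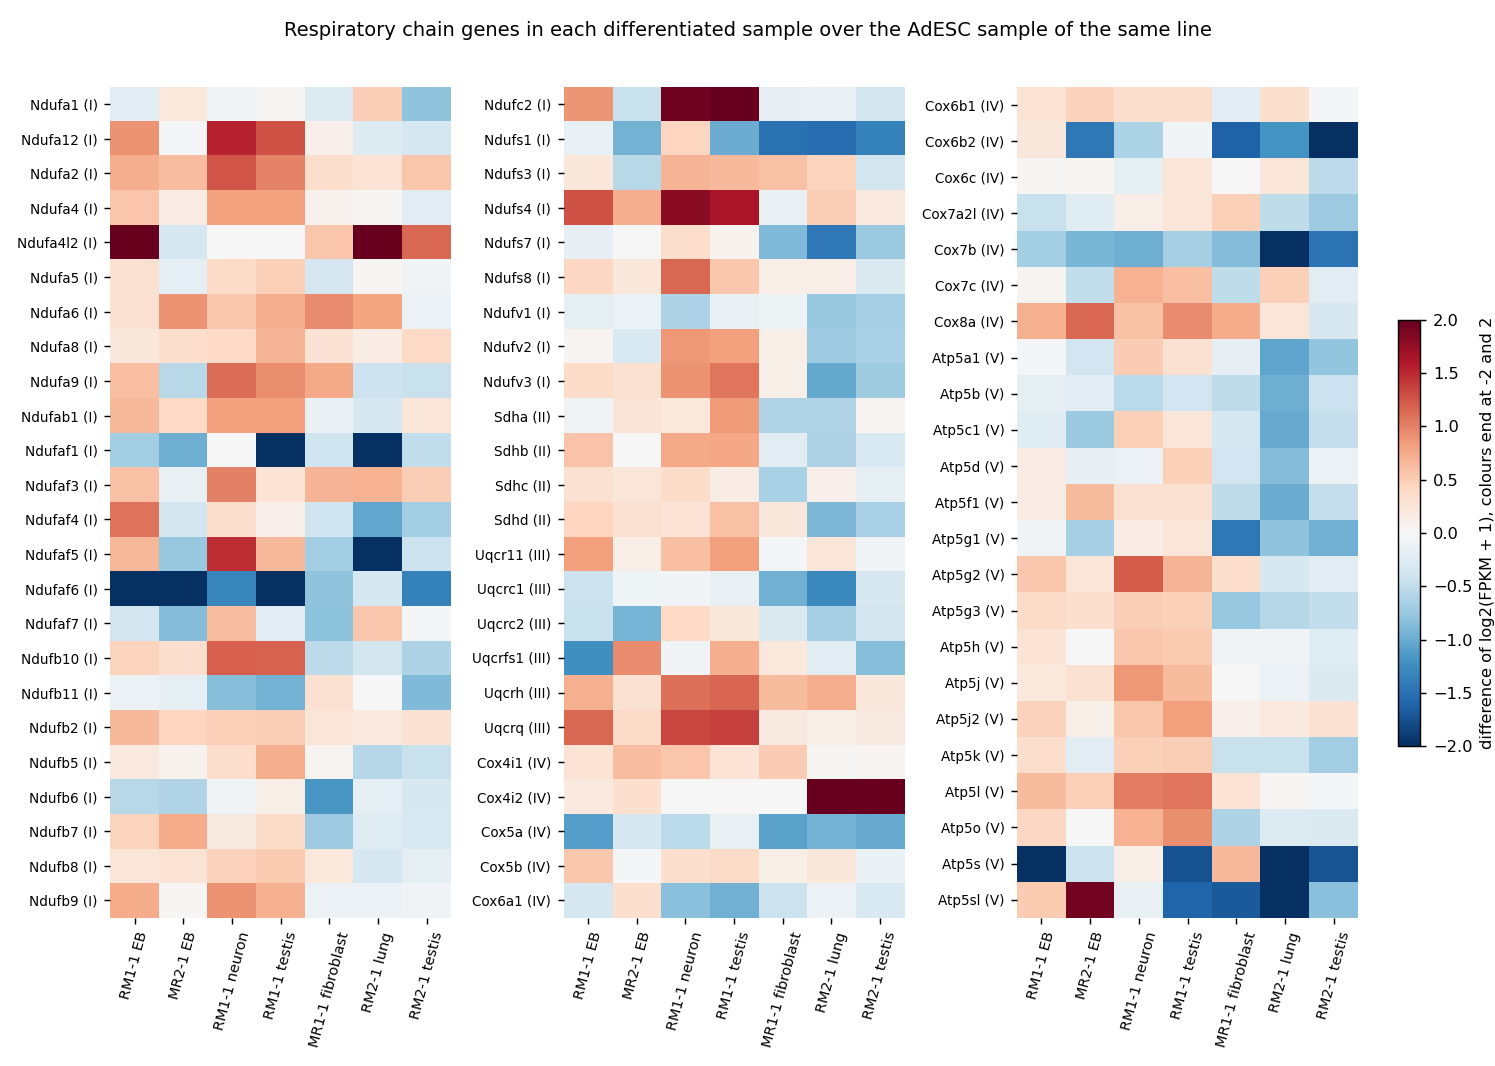
Difference of log2(FPKM + 1) (colour) of the respiratory chain genes reported (rows, complex in brackets) in each differentiated sample (columns) over the AdESC sample of its line; Cox6a2, Cox8b and Cox8c are left out because nearly all cells were at 0. The Cox7b and Cox5a rows are blue and the RM1-1 neuron and testis columns mostly red, with Ndufc2 at 1.94 and 2.08.

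Tissue forms of complex IV subunits were low in most samples. Cox4i2, the form of subunit 4 known from lung and for its oxygen response, had 6.95 FPKM in the RM2-1 lung sample and 8.70 FPKM in the RM2-1 testis sample, and at most 0.261 FPKM in the other 9 samples, with 0 in all 4 AdESC samples. In the testis sample 11 of 20 cells were above 0, up to 43.9 FPKM, and in the lung sample 1 of 4. Cox4i1 was far above it everywhere, at 412 and 420 FPKM in those samples. Ndufa4l2 had 19.1 FPKM in the lung sample, all of it from 1 of 4 cells, and 6.68 FPKM in RM1-1 EBs from 3 of 5 cells. Both RM2-1 samples also held the highest smooth muscle marker sums, 2439 FPKM in lung and 4116 FPKM in testis, with 816 FPKM in RM1-1 EBs and at most 365 FPKM elsewhere. The part of such cells in these values was not tested.

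Among the forms of subunit c, Atp5g1 made up 22.7% to 38.2% of the summed Atp5g FPKM in differentiated samples and 38.3% to 43.97% in AdESC samples, ranges that lay side by side without overlap. Without the RM1-1 testis and RM2-1 lung samples the differentiated range was 22.7% to 34.1%. Atp5g1 was the leading form in all 4 AdESC samples, and also in the RM2-1 lung (38.2%) and RM2-1 testis (34.1%) samples. In RM1-1 AdESCs its 38.3% was close to the 37.6% of Atp5g3. In the bulk AdESC lines Atp5g2 led instead, with 42.5% to 51.8%. Across the 2 sets, which were made and normalised separately, Cox8a averaged 188 FPKM in single-cell AdESCs and 682 FPKM in bulk AdESCs, and Cox6b2 averaged 11.8 FPKM and 61.9 FPKM, while Atp5f1 averaged 163 FPKM and 70.7 FPKM. The other X-linked subunits among the 75 genes, Ndufa1 and Ndufb11, did not pass in either single-cell comparison. Genes outside the 75 were not placed by chromosome here. Ndufa1 ran from 164 to 407 FPKM in differentiated samples and 198 to 288 FPKM in AdESC samples, and Ndufb11 from 125 to 240 FPKM in differentiated samples and 133 to 242 FPKM in AdESC samples.

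Genes around the chain were read from 4 lists. The share of list genes called is set beside the share of all genes called in each comparison. Among assembly and metal delivery factors, 1 of 25 tested was higher in AdESCs than in mouse ESCs, beside 3.89% of all genes. It was Acad9, an assembly factor of complex I, at 22.9 ± 4.15 FPKM against 8.58 ± 1.13 FPKM (log2 difference 1.30 ± 0.26, adjusted p = 0.0272). Between rat and mouse 5 were higher and 2 lower, beside 26.6% of all genes, with Acad9 at 38.1 FPKM against 8.58 FPKM, the complex II factor Sdhaf2 at 24.6 FPKM against 7.34 FPKM, and the copper chaperone Sco1 at 21.01 FPKM against 7.87 FPKM. None of 24 passed between differentiated cells and AdESCs, beside 15.9% of all genes.

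Among electron carriers and ADP/ATP exchangers, 1 of 22 was higher and 3 lower in differentiated cells, beside 15.9% of all genes. The same numbers were called without the RM1-1 testis and RM2-1 lung samples, beside 14.7% of all genes. The adenine nucleotide carriers, which swap ATP for ADP across the inner membrane, moved in opposite directions. Slc25a5 averaged 1106 ± 369 FPKM in differentiated samples (n = 7) and 2960 ± 237 FPKM in AdESCs (n = 4), a log2 difference of -1.49 ± 0.23 (adjusted p = 0.000445). Slc25a4 averaged 812 ± 370 FPKM and 328 ± 49.8 FPKM, 1.19 ± 0.29 (adjusted p = 0.0121). Vdac1, the outer membrane pore, fell to 124 FPKM, against 252 FPKM in AdESCs. In bulk, 2 of 22 were higher in AdESCs than in rat, beside 9.7% of all genes, the uncoupling protein Ucp2 (12.4 against 2.47 FPKM) and the ubiquinone reductase Etfdh (10.6 against 4.98 FPKM).

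In the citric acid cycle list 1 of 21 was higher and 2 lower in differentiated cells, beside 15.9% of all genes. Without the RM1-1 testis and RM2-1 lung samples none was higher and 2 were lower, beside 14.7% of all genes. Pdk2 did not pass in that limma fit (adjusted p = 0.0916). Pdha1, the E1 alpha subunit of pyruvate dehydrogenase, averaged 76.3 ± 33.9 FPKM in differentiated samples and 477 ± 80.5 FPKM in AdESCs (-2.73 ± 0.31, adjusted p = 3.06e-05). Idh3g, of isocitrate dehydrogenase, averaged 82.2 FPKM and 225 FPKM (-1.48 ± 0.25), and the kinase Pdk2 8.44 FPKM and 0.211 FPKM (2.30 ± 0.75). In bulk Pdha1 was higher in AdESCs than in mouse, at 240 ± 39.4 FPKM against 81.3 ± 5.26 FPKM (1.54 ± 0.28, adjusted p = 0.0179). The rat lines, at 400 ± 167 FPKM, were above mouse too (2.22 ± 0.32, adjusted p = 0.000942 in limma).

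In the list of mitochondrial gene control 3 of 15 were lower in differentiated cells and none higher, beside 15.9% of all genes. The list median was -0.97, against 0.02 over all genes. Without the RM1-1 testis and RM2-1 lung samples 3 were lower, beside 14.7% of all genes. The list median was then -1.04, against 0.03 over all genes. Tfam, which packs and transcribes mitochondrial DNA, averaged 22.9 ± 9.90 FPKM in differentiated samples and 74.3 ± 11.4 FPKM in AdESCs (-1.79 ± 0.40, adjusted p = 0.00712). Nrf1, a transcription factor of nuclear respiratory genes, averaged 10.5 FPKM and 31.4 FPKM, and Ssbp1, which coats single-stranded mitochondrial DNA, 94.9 FPKM and 178 FPKM. In bulk Tfam was higher in AdESCs than in mouse, at 45.7 ± 14.0 FPKM against 16.2 ± 4.84 FPKM (1.42 ± 0.33, adjusted p = 0.0448). The rat lines were above mouse too (2.40 ± 0.38, adjusted p = 0.00144 in limma), and the AdESC mean of Tfam lay between the rat and mouse means. Over the 72 respiratory chain genes the median difference in the same single-cell comparison was 0.07.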

How the data were processed

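RNA sequencing values of 8 bulk libraries and 87 single cells were used. The authors deposited FPKM. Per the submitters' processing notes the tools were FastQC 0.10.1, TopHat2 2.0.10 and Cufflinks 2.1.1, on mm10 and rn5; strand use and the treatment of near copies are not given in the sources used here. Both tables were joined by gene, and 74 of 75 genes were placed in GENCODE M21. Depth is unknown, so no counting interval is given. No 2 libraries or cells had identical values.

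FPKM plus 1 was put on a log2 scale and compared by limma 3.58.1 (trended variance, R 4.3.3), keeping genes that averaged 1 FPKM or more, 72 members in each set. Benjamini-Hochberg adjustment ran over the whole table, and 0.05 was the threshold. Log2 differences understate changes of low genes. Bulk fits used all 8 libraries. The code was tested on simulated data. Single-cell samples pair by cell line; the deviations of same-line samples correlated by -0.015 to 0.0356.

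The members, lists and tests were chosen with earlier results of these data known. Named genes were all members past the threshold (if over 10, the 10 largest by log2 difference, and those listed at 0 in a group apart), a set of core, X-linked and isoform members, members at least 4-fold from the AdESC sample of their line with 10 FPKM on the higher side, and up to 3 list genes per comparison past the threshold. Ndufa12, Ndufs4 and Atp5g1 in same-line comparisons were named after their values were seen. A fixed member is not reported here by name. Alternatives were a pseudocount of 0.1, no filter or a mean of at least 5 FPKM, upper-quartile scaling, leaving out each sample, means of logs, separate RM and MR groups, and a replicate block.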

Additional observations from a re-analysis of the deposited data

Results flagged for a closer look

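Within a group of samples, 1 line or sample stood apart from the others for 7 of 101 sets of values compared, where chance alone would flag about 5%. In bulk AdESCs, Ndufaf5 was low in RM2-1 at 7.72 FPKM, with the others at 9.98 to 10.1 FPKM. Sdhc was low in MR1-1 at 81.4 FPKM, with the others at 98.8 to 102 FPKM. Cox4i2 was high in MR1-1 at 2.38 FPKM, with the others at 0.741 to 1.00 FPKM.

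In single-cell AdESC samples, Ndufs1 was high in RM2-1 at 82.3 FPKM, with the others at 65.1 to 67.2 FPKM. Sdha was low in the same sample at 51.9 FPKM, with the others at 72.6 to 73.2 FPKM. Cox8c, the testis form of subunit 8, was at 1.84 FPKM in MR1-1 and at 0 in the others. Among the differentiated samples Ndufa4l2 was high in the RM2-1 sample labelled lung at 19.1 FPKM, with the others at 0 to 6.68 FPKM.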

How the results depend on the processing

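The 23 differences of single members past the threshold, 2 of them for Atp5f1, kept their direction in all 296 fits under the alternatives and their call in 218 of them. Calls that held under every alternative were Cox7b in 3 comparisons (AdESC and rat against mouse, differentiated cells against AdESCs), and Ndufab1, Ndufaf5 and Uqcr11 between rat and mouse, leaving aside Atp5f1, which is listed at 0 in rat. Named members without a call passed in 18 of 1975 fits. The count of members past the threshold moved by over 1.5 times as follows. With RM and MR as separate groups it was 1 against mouse (2 as reported) and 2 against rat (4). For differentiated cells (1 as reported) it was 3 with a pseudocount of 0.1, 2 with no filter, 7 with upper-quartile scaling, 4 with means of logs and 3 without the RM1-1 testis and RM2-1 lung samples. For EBs (3 as reported) it was 1 with no filter and 5 with upper-quartile scaling. Leaving out 1 sample at a time gave 1 to 3 against mouse, 1 to 5 against rat, 7 to 13 between rat and mouse, 0 between RM and MR, 1 to 3 for differentiated cells and 0 to 3 for EBs. The causes were not tested. Upper-quartile scaling moved the ratio of summed FPKM to 1.17 for AdESC over rat, 0.781 for rat over mouse, 1.07 for RM over MR and 1.13 for EB over AdESC.

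With cell line as a replicate block, the pairing the lines give, the count was 2 for differentiated cells and 1 for EBs. Between RM and MR lines, where samples share only a line number, the block left 0 calls; the deviations of same-numbered lines correlated by 0.554. Unknown depth, 2 lines a parent and 4 to 20 cells a sample limit all of these results.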
